A study of Mus musculus with 6 samples.

Results

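The genes described here are 10 negative regulators of mitogen-activated protein kinase (MAPK) signalling: the MAPK phosphatases Dusp1, Dusp2, Dusp4, Dusp5, Dusp6 and Dusp10, and the feedback inhibitors Spry1, Spry2, Spred1 and Spred2. They were chosen by name, through the Ensembl identifiers that carry these symbols in GRCm38, and are 10 of the 39179 gene identifiers counted in the series. This choice was made with earlier results of these data known. RNA was sequenced from wild-type C57BL/6 mouse T cells. Naive CD4+ cells from spleens of animals aged 6 weeks were cultured for 3 days under conditions that yield regulatory T cells (Tregs): coated anti-CD3 (labelled 2 per ml, with a garbled unit), 1 µg/ml of anti-CD28, 5 ng/ml of TGFβ1 and 40 ng/ml of IL-2. All cells received this mixture, and the groups differed in having DEL-1-Fc (3 libraries) or the Fc control (3 libraries). DEL-1-Fc is the secreted integrin-binding protein DEL-1 joined to an antibody Fc part. The cells are Tregs made in culture and not Tregs taken from an animal. The labels do not say whether the libraries of a group came from separate cultures or animals, so the spread behind each p-value is that among these 6 libraries and may be technical.

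ERK, JNK and p38 are the MAPKs that carry signals from the T cell receptor, costimulation and stress to the nucleus. They are switched on by phosphorylation of a threonine and a tyrosine, and the DUSP enzymes (dual-specificity phosphatases) remove both phosphates. Many DUSP genes are themselves induced by the kinases that they switch off, which makes them negative feedback genes. Sprouty and Spred proteins act further up, between receptors, RAS and RAF, and Spred proteins recruit the RAS inactivator neurofibromin to the membrane. In Tregs and other T cells these genes are read as a record of recent receptor signalling as well as brakes on it.

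The cells carried the markers of their label: summed CPM of 7 Treg markers (among them Foxp3, Il2ra and Ctla4) was 3825 to 4231 in Fc and 3895 to 4436 in DEL-1-Fc, and that of 8 T cell markers was 2535 to 2610 and 2639 to 2955. Most of the Treg sum was Il2ra, with means of 2463 CPM in Fc and 2552 CPM in DEL-1-Fc, while Foxp3 averaged 359.5 and 523.3 CPM. Of the Treg markers, Foxp3 and Lrrc32 were called higher and Ctla4 lower in DEL-1-Fc. CPM is the usual depth-scaled count, here with TMM factors. Markers of other cells were low. The 5 B cell markers summed to 4.9 to 6.15 CPM in Fc and 5.8 to 7.07 CPM in DEL-1-Fc, the 2 CD8 markers to 10.1 to 10.4 and 11.9 to 12.8 CPM, and the 6 myeloid markers to 4.59 to 4.95 and 4.27 to 4.64 CPM, nearly all of it Cd68. The 3 NK markers reached at most 0.0364 CPM in sum and the 4 erythroid markers 0.23 CPM. Ncr1 and Hbb-bs had 0 counts, a count that in the library of least depth permits a level of up to 0.0899 CPM. Of the CD8 markers, Cd8a was called higher in DEL-1-Fc (2.29 to 2.52 against 3.6 to 4.49 CPM). The more abundant Cd8b1 was not called (mean 7.96 against 8.2 CPM, log2 fold change 0.04, edgeR adjusted p = 0.846). The part that cells of other types have in the results was not tested. Library totals ran from 33364166 to 61967687 counts. DEL-1-Fc replicate 1 was the shallowest and stood apart. Genes whose longest transcript had up to 1657 bases had a median deviation of 0.13 on the log2 scale there, and genes with 4444 or more one of -0.14. In the other 5 libraries these medians lay between -0.04 and 0.055. Calls of members and named pathway genes that rest on it are given with and without it. Levels per length, shares, ratios and spreads are mostly given with all 6 libraries.

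All 10 genes were expressed above the low-count filter, and 4 of them differed between the groups. Dusp6 and Spry1 rose with DEL-1-Fc, by 1.42-fold and 1.68-fold. Dusp4 and Dusp5 fell, by 1.39-fold and 1.44-fold. The other 6 (Dusp1, Dusp2, Dusp10, Spry2, Spred1 and Spred2) did not pass the test, which was edgeR's quasi-likelihood test with Benjamini-Hochberg adjustment over 14928 genes and a threshold of 0.05. Over all genes tested the same test called 12.6%, with 6.4% higher and 6.22% lower. Against this, 4 of 10 members were called, and they moved in both directions. Because the members and the pathway lists below were chosen with earlier results known, their shares of calls are descriptions only. The share over all genes was not matched to them for expression level. The median log2 fold change (DEL-1-Fc over Fc) of the 10 was -0.07, against 0.01 over all genes tested. The 2 rises and 2 falls are seen in the plot of CPM by library.

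**Figure D1:**
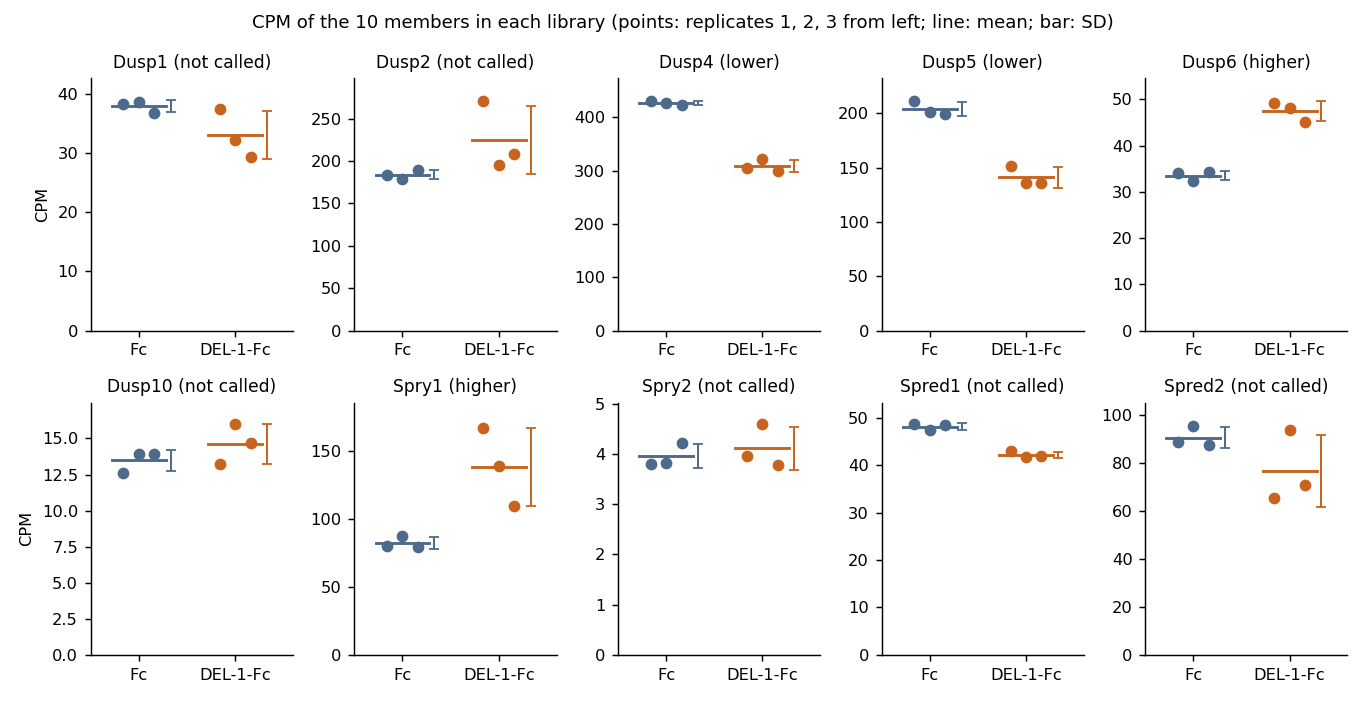
CPM (vertical axis, from 0) of each of the 10 genes in the 3 Fc and the 3 DEL-1-Fc libraries, with replicates 1, 2 and 3 from left to right, the group mean as a line and the SD as a bar; panel titles give the edgeR call. Dusp4 and Dusp5 lie lower and Dusp6 and Spry1 higher in all 3 DEL-1-Fc libraries, and the DEL-1-Fc bars are the longer ones in every panel except that of Spred1 (SD 0.666 against 0.707 CPM).

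The stretches before the starts of 3 of the 4 called genes are shown because these genes moved in opposite directions. They come from RefSeq (GRCm38.p6), whose table held windows for 9 of the 10 genes; Dusp4 is named only. Each runs 5′ to 3′ from 250 bases before the RefSeq start to the base before that start or before the first annotated exon, whichever comes first. Capitals mark matches to 7 motifs searched on both strands: the cAMP response element TGACGTCA, the AP-1 site TGANTCA, the ETS site CCGGAAG, the EGR site GCGNGGGCG, the CArG box bound by serum response factor, the E-box CACGTG and the RUNX site TGTGGT.
Dusp5, upstream of its start, chr19:53528895-53529108, plus strand: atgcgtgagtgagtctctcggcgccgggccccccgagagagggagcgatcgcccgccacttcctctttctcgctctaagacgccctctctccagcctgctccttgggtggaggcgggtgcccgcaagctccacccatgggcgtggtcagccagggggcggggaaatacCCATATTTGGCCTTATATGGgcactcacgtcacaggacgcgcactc
Dusp6, upstream of its start, chr10:99262981-99263230, plus strand: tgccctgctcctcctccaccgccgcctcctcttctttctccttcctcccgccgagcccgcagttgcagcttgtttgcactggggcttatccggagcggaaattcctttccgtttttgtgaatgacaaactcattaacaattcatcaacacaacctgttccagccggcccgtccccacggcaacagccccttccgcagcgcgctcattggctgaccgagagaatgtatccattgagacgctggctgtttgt
Spry1, upstream of its start, chr3:37639697-37639946, plus strand: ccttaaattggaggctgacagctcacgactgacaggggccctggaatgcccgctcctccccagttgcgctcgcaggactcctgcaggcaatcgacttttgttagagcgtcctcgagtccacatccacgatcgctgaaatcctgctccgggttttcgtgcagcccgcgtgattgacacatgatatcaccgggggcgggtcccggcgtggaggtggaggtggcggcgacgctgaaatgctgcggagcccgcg
The Dusp5 stretch held 2 adjoining CArG boxes, 82 and 72 bases before the RefSeq start. CArG boxes occurred in 1.47% of the 32841 windows of 250 bases in the table. The Dusp6 and Spry1 stretches held none of the 7 motifs, which says only that these letters are not in these windows. An eighth motif, the SP1 site GGGCGG, is not capitalised; it occurred once each in the windows of Dusp5 and Spry1, was not found in that of Dusp6, and is present in 32.7% of all windows. Among the members that were not called, the Dusp1 window held 1 cAMP response element (1.55% of all windows) and 1 E-box (6.02%), and the Dusp2 window held 1 EGR site (4.7%), which overlaps an SP1 site, and 1 E-box. A match is a description of the letters only.

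Dusp4, Dusp5, Dusp1 and Dusp2 form the nuclear, inducible subfamily. Dusp4 (ENSMUSG00000031530, chromosome 8 from 34807297 to 34819894, plus strand, GRCm38), a nuclear phosphatase of ERK and JNK, measured 431.5, 427.8 and 424 CPM over the Fc libraries against 304.9, 321.5 and 299 CPM over the DEL-1-Fc libraries. The groups were far apart relative to their spread: 427.7 ± 3.74 against 308.4 ± 11.7 CPM (SD, n = 3 each). The log2 fold change was -0.47 (SE 0.0606, edgeR adjusted p = 0.00136). Dusp5 (ENSMUSG00000034765, chromosome 19 from 53529109 to 53542431, plus strand), a nuclear phosphatase with high preference for ERK, measured 211, 201.1 and 199 CPM in Fc. In DEL-1-Fc it measured 151.9, 135.6 and 135.7 CPM, so that every DEL-1-Fc library lay under every Fc library. Its log2 fold change was -0.53 (SE 0.0666, edgeR adjusted p = 0.00122). Both falls were called in each of the 16 alternative settings, with Dusp4 between -0.51 and -0.44 and Dusp5 between -0.59 and -0.50 on the log2 scale. An annotated antisense gene covers 22.1% of the Dusp5 exon bases, and the strand setting of the counting is not given, so part of its reads is uncertain.

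Dusp2 and Dusp1, the other nuclear phosphatases, gave no call. Dusp2 (PAC-1; ENSMUSG00000027368, chromosome 2 from 127336159 to 127338376, plus strand), first known from activated T cells, measured 183.6, 178.3 and 189.8 CPM over the Fc libraries against 270.6, 195.6 and 208 CPM over the DEL-1-Fc libraries. All 3 DEL-1-Fc libraries lay above the Fc libraries, but replicate 1 lay far above the other two. Its log2 fold change was 0.29 (SE 0.113, edgeR adjusted p = 0.138) and became 0.13 (edgeR adjusted p = 0.087) without DEL-1-Fc replicate 1. Dusp1 (MKP-1; ENSMUSG00000024190, chromosome 17 from 26505590 to 26562128, minus strand), an immediate-early phosphatase of p38, JNK and ERK, measured 38.4, 38.7 and 36.8 CPM over the Fc libraries against 37.5, 32.3 and 29.4 CPM over the DEL-1-Fc libraries. The groups overlapped, since DEL-1-Fc replicate 1 lay at the Fc level, and the log2 fold change was -0.20 (SE 0.0907, edgeR adjusted p = 0.194). Without that library Dusp1 was called lower (log2 fold change -0.30, edgeR adjusted p = 0.00642). It was also called when trends with gene length and GC content were taken out of every library, a setting chosen after seeing the data (-0.25, edgeR adjusted p = 0.0339).

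Dusp6 (MKP-3; ENSMUSG00000019960, chromosome 10 from 99263231 to 99267489, plus strand) is the cytoplasmic phosphatase specific for ERK and is transcribed in response to ERK activity. It measured 34, 32.4 and 34.2 CPM over the Fc libraries against 49.3, 48.1 and 45.1 CPM over the DEL-1-Fc libraries. The lowest DEL-1-Fc library thus stood well above the highest Fc library, and means were 33.5 ± 1.02 and 47.5 ± 2.15 CPM (SD, n = 3). The log2 fold change was 0.50 (SE 0.0645, edgeR adjusted p = 0.00136), and the call held in all 16 alternative settings, at 0.46 to 0.54. Dusp10 (MKP-5; ENSMUSG00000039384, chromosome 1 from 184013302 to 184075636, plus strand), which acts on JNK and p38 and not on ERK, measured 12.6, 13.9 and 13.9 CPM in Fc. It measured 13.2, 16 and 14.7 CPM in DEL-1-Fc. The groups overlapped, with a log2 fold change of 0.12 (SE 0.0951, edgeR adjusted p = 0.453).

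Spry1 (ENSMUSG00000037211, chromosome 3 from 37639947 to 37644598, plus strand), an inhibitor of RAS-ERK signalling induced by the same pathway, had the largest change of the 10. It measured 80.3, 87.9 and 79.4 CPM over the Fc libraries against 167.3, 139.4 and 109.5 CPM over the DEL-1-Fc libraries. Every DEL-1-Fc library exceeded every Fc library, but the DEL-1-Fc libraries themselves spread over 109.5 to 167.3 CPM. The log2 fold change was 0.75 (SE 0.139, edgeR adjusted p = 0.011). The call was lost without Fc replicate 1 (0.73, edgeR adjusted p = 0.0537) and likewise on omitting DEL-1-Fc replicate 2 (0.74, edgeR adjusted p = 0.0557). Without DEL-1-Fc replicate 1, the highest library, it was 0.59 (edgeR adjusted p = 0.0149). An annotated gene on the other strand covers 24.4% of the Spry1 exon bases, which makes part of its reads uncertain. Spry2 (ENSMUSG00000022114, chromosome 14 from 105891947 to 105896819, minus strand), a close relative of Spry1, was the least abundant member, with 216, 234 and 232 counts over the Fc libraries and 130, 260 and 224 counts over the DEL-1-Fc libraries. These are 3.81, 3.82 and 4.23 CPM against 3.96, 4.6 and 3.78 CPM, overlapping groups with a log2 fold change of 0.06 (SE 0.127, edgeR adjusted p = 0.805).

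The Spred genes, whose products hold RAF in check at the membrane, were not called. Spred1 (ENSMUSG00000027351, chromosome 2 from 117121374 to 117182279, plus strand) measured 48.7, 47.4 and 48.5 CPM over the Fc libraries against 43, 41.8 and 41.9 CPM over the DEL-1-Fc libraries. This was the tightest member in DEL-1-Fc, with a coefficient of variation (CV, SD over mean) of 1.58%, and its groups did not overlap. Its log2 fold change of -0.19 (SE 0.0572) missed the threshold (edgeR adjusted p = 0.0633). It passed with DESeq2 (-0.20, DESeq2 adjusted p = 0.0261), under the filter of 5 CPM (-0.19, edgeR adjusted p = 0.05, just under the threshold), and when DEL-1-Fc replicate 1 was left out (-0.20, edgeR adjusted p = 0.0157). Spred2 (ENSMUSG00000045671, chromosome 11 from 19924375 to 20024026, plus strand) measured 88.7, 95.8 and 87.7 CPM over the Fc libraries against 65.7, 93.9 and 71.1 CPM over the DEL-1-Fc libraries. Replicate 2 of DEL-1-Fc lay within the Fc range and the other two below it, so the groups overlapped (log2 fold change -0.24, SE 0.122, edgeR adjusted p = 0.252). Without DEL-1-Fc replicate 2 it was called lower (-0.41, edgeR adjusted p = 0.0104). In total 6 of the 10 genes (Dusp2, Dusp4, Dusp5, Dusp6, Spry1 and Spred1) had groups that did not overlap, 3 higher and 3 lower, and 34.8% of all genes tested had such groups (17.3% higher and 17.5% lower).

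**Figure D2:**
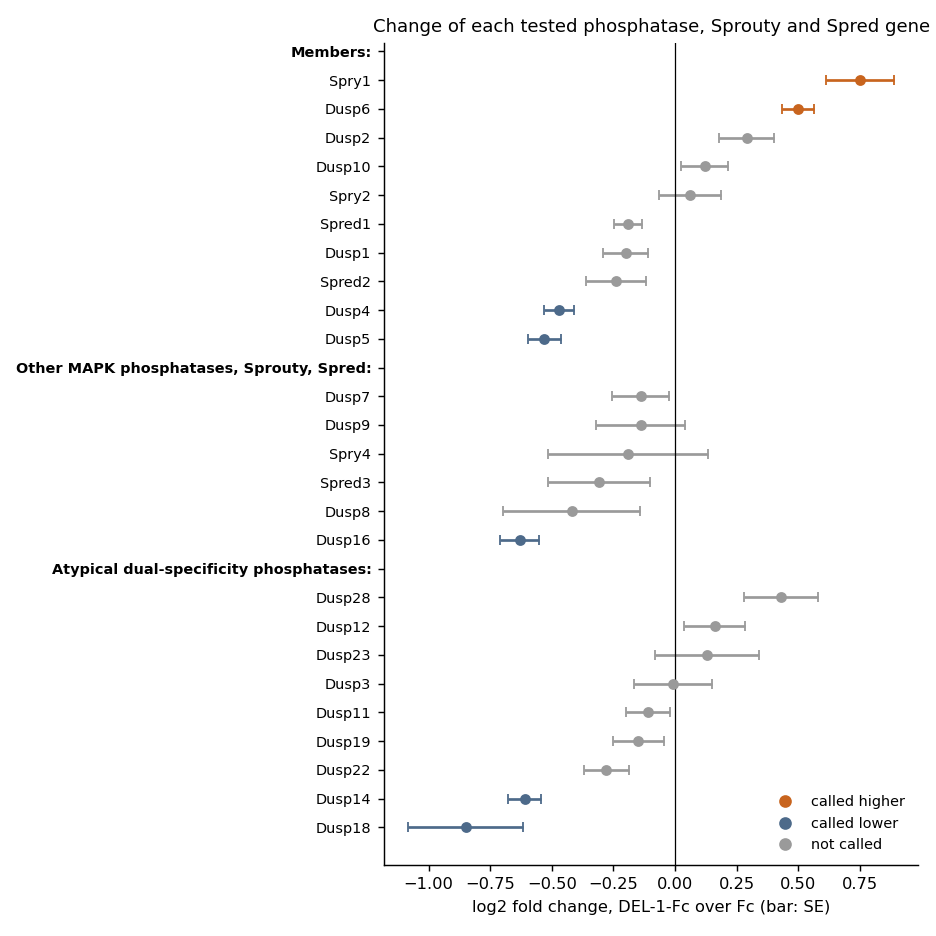
Log2 fold change (horizontal axis, DEL-1-Fc over Fc, bar SE) of the 10 members, of the 6 tested relatives among MAPK phosphatases, Sprouty and Spred, and of the 9 tested atypical dual-specificity phosphatases; colour gives the edgeR call. Spry1 (0.75) and Dusp6 (0.50) are the called rises, and Dusp16, Dusp14, Dusp18, Dusp5 and Dusp4 the called falls.

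Opposite moves of genes in one library can be read without any scaling between libraries, from the ratio of their read counts. The count of Dusp6 was 0.161, 0.161 and 0.172 times that of Dusp5 over the Fc libraries and 0.324, 0.355 and 0.332 times over the DEL-1-Fc libraries. The lowest DEL-1-Fc ratio was therefore well above the highest Fc ratio, a log2 difference of 1.03. Dusp6 over Dusp4 went from 0.0784 ± 0.00255 to 0.154 ± 0.00659 (SD, n = 3), a log2 difference of 0.97. Spry1 over Spred1, within the Sprouty and Spred family, went from 1.72 ± 0.123 to 3.28 ± 0.64, a log2 difference of 0.92. Dusp4 over Dusp2, within the nuclear subfamily, went from 2.33 ± 0.085 to 1.4 ± 0.26. In contrast Dusp5 over Dusp4 was 0.489, 0.47 and 0.469 over the Fc libraries against 0.498, 0.422 and 0.454 over the DEL-1-Fc libraries, which overlap. Of 8 ratios compared, chosen after the values were seen, 5 had groups that did not overlap. All 5 paired a gene whose DEL-1-Fc libraries all lay above Fc with one whose libraries all lay below. Their separation, and with it the p that follows, was therefore fixed by the CPM values above and adds no evidence. Each of these 5 had a two-sided exact permutation p of 0.1, the smallest that 3 against 3 libraries can give, and 0.16 after Benjamini-Hochberg adjustment over the 8.

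**Figure D3:**
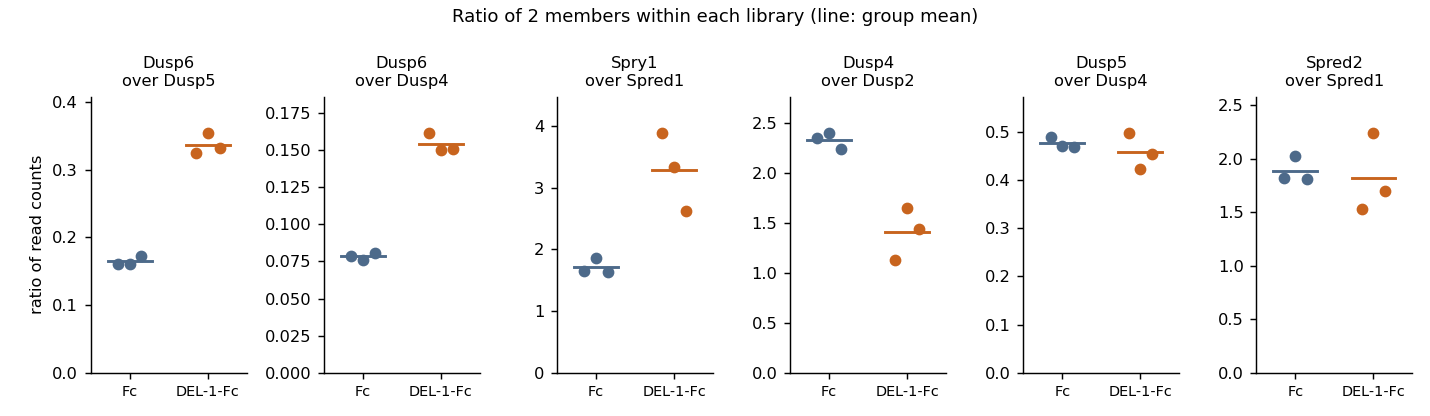
Ratio of the read counts of paired members within each library (vertical axes from 0), 3 Fc and 3 DEL-1-Fc libraries, line at the group mean. Dusp6 over Dusp5, Dusp6 over Dusp4 and Spry1 over Spred1 are higher and Dusp4 over Dusp2 is lower in all 3 DEL-1-Fc libraries, while Dusp5 over Dusp4 and Spred2 over Spred1 overlap.

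Levels were compared between genes per length, as RPKM, the CPM divided by the merged exon length in kilobases. In Fc the order was Dusp4 (156.1 ± 1.37 RPKM), Dusp2 (91.8 ± 2.88), Dusp5 (82.4 ± 2.59), Spry1 (28.4 ± 1.62), Spred2 (19.6 ± 0.952), Dusp1 (11.5 ± 0.308), Dusp6 (10.7 ± 0.325), Spred1 (7.1 ± 0.104), Dusp10 (4.43 ± 0.239) and Spry2 (1.89 ± 0.114; RPKM, SD, n = 3). No neighbours in this order overlapped over the 3 Fc libraries. Dusp4 lay at the 98.1 percentile of RPKM among genes tested in Fc and Spry2 at the 34.8. In DEL-1-Fc the means at the top met, with Dusp4 at 112.6 ± 4.25 and Dusp2 at 112.2 ± 20.1 RPKM. Their ranges overlapped only through replicate 1, where Dusp2 (135.1 RPKM) exceeded Dusp4 (111.3 RPKM). In replicates 2 and 3 Dusp4 (117.3 and 109.1 RPKM) lay above Dusp2 (97.6 and 103.9 RPKM). With the longest transcript as the length, chosen after seeing the data, the DEL-1-Fc mean of Dusp2 (139 RPKM) stood above that of Dusp4 (112.6 RPKM). Dusp5 (57.1 ± 3.8 RPKM) and Spry1 (47.8 ± 9.95 RPKM) also overlapped in DEL-1-Fc only through replicate 1 (Spry1 at 57.6 RPKM). Over replicates 2 and 3 Dusp5 (54.8 and 54.9 RPKM) stood above Spry1 (48 and 37.7 RPKM). Dusp6 (15.2 ± 0.687 RPKM) moved above Dusp1 (9.99 ± 1.24 RPKM), the reverse of their order in Fc, with no overlap by merged exon length. By the longest transcript the DEL-1-Fc means kept this order (16.99 against 14.3 RPKM). The ranges then overlapped, with Dusp1 in replicate 1 slightly above Dusp6 in replicate 3. Dusp6 also overlapped Spred2 (16.6 ± 3.24 RPKM), again through replicate 1 alone, where Spred2 was at 14.2 RPKM. Without that replicate they nearly met, with Spred2 at 15.4 RPKM in replicate 3 and Dusp6 at 15.36 RPKM in replicate 2. As shares of the summed RPKM of the 6 phosphatases, Dusp4 took 43.8 ± 0.429% in Fc and 36.2 ± 3.19% in DEL-1-Fc, Dusp5 23.1 ± 0.533% and 18.3 ± 0.215%, Dusp2 25.7 ± 0.741% and 35.8 ± 3.7%, and Dusp6 3 ± 0.0689% and 4.87 ± 0.239%. Spry1 took 49.8 ± 0.723% of the summed RPKM of the 4 Sprouty and Spred genes in Fc and 65.4 ± 5.67% in DEL-1-Fc. Replicate 1 had the highest DEL-1-Fc share of Dusp2 (39.8%, against 32.5% and 35.1% in replicates 2 and 3). The same held for Spry1 (71.9%, against 62.6% and 61.7%). In these bulk libraries, a change in the number of cells that express a gene and a change in RNA per cell cannot be told apart.

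**Figure D4:**
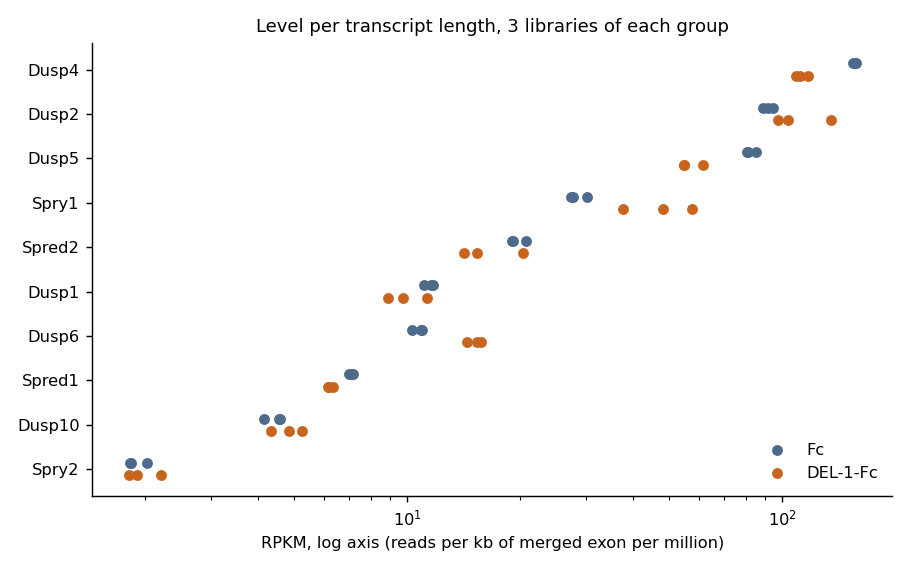
RPKM (horizontal log axis) of each member in the 3 Fc and 3 DEL-1-Fc libraries, ordered by the Fc mean. Dusp4, Dusp2 and Dusp5 lie highest in Fc and Spry2 lowest in both groups, near 1.9 RPKM. In DEL-1-Fc the points of Dusp4 overlap those of Dusp2 and the points of Dusp5 those of Spry1, both only through replicate 1.

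Of the family's other members, Dusp16 fell. Dusp16 (MKP-7), like Dusp10 a phosphatase of JNK and p38, averaged 27.3 ± 1.2 CPM in Fc against 17.6 ± 1.31 CPM in DEL-1-Fc (SD, n = 3), a log2 fold change of -0.63 (SE 0.0794, edgeR adjusted p = 0.00123). Dusp16 and Dusp10, which share these substrates, therefore differed in call, although the difference between them was not tested. The other 5 tested genes of this list (Dusp7, Dusp8, Dusp9, Spry4 and Spred3) were not called, the median log2 fold change of the 6 was -0.25, and Spry3 and Styxl1 were too low to test, with Spry3 at 0 counts in every library. Among 9 tested atypical dual-specificity phosphatases, small enzymes that lack the MAPK-docking domain, 2 were called by edgeR (22.2%, against 12.6% of all genes tested), both lower. Dusp14, also called MKP-6 and reported to restrain T cell receptor signalling, averaged 24.1 ± 0.222 CPM in Fc against 15.8 ± 0.444 CPM in DEL-1-Fc (log2 fold change -0.61, SE 0.0672, edgeR adjusted p = 0.000638). Dusp18 was called near the limit of detection, at 0.602 ± 0.019 and 0.328 ± 0.0494 CPM (-0.85, edgeR adjusted p = 0.0449). Its call was lost with DESeq2 (DESeq2 adjusted p = 0.132) and without any one of the 6 libraries (edgeR adjusted p from 0.0602 to 0.145), and each omission left 1 edgeR call in the list.

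In the RAS-ERK cascade, from adaptors and exchange factors to the kinases, 4 of 24 tested genes were called (16.7%, near the 12.6% of all genes tested), 1 higher and 3 lower, with a median log2 fold change of -0.06. The exchange factors Sos1 (-0.47, SE 0.099, edgeR adjusted p = 0.015) and Sos2 (-0.39, SE 0.0816, edgeR adjusted p = 0.0148) fell, as did the ERK-activating kinase Map2k1 (MEK1; -0.31, SE 0.068, edgeR adjusted p = 0.0197). The small GTPase Rras2 rose (0.24, SE 0.0585, edgeR adjusted p = 0.0294). These calls depended on the libraries used: 1, 0 and 2 were made without Fc replicates 1, 2 and 3, while omitting DEL-1-Fc replicate 1 gave 7 and omitting replicate 3 gave 2. Calls over all genes moved the same way, from 1884 to 901, 970 and 963 without Fc replicates 1, 2 and 3. They were 3003 and 1295 without DEL-1-Fc replicates 1 and 3. Sos1 lost its call without Fc replicate 1 or 2, Sos2 without Fc replicate 1 or 2 or DEL-1-Fc replicate 3, Map2k1 without Fc replicate 2 or 3, and Rras2 without any one Fc library or DEL-1-Fc replicate 3.

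Other brakes on RAS and ERK were called in 6 of 17 tested genes (35.3%, against 12.6% of all genes tested), 3 higher and 3 lower, with a median log2 fold change of -0.08. As this list was drawn up with earlier results known, its share is a description only. The RAS GTPase-activating proteins Rasa3 (0.67, SE 0.087, edgeR adjusted p = 0.0014), Rasa1 (0.37, SE 0.0882, edgeR adjusted p = 0.0276) and Rasal3 (0.26, SE 0.0682, edgeR adjusted p = 0.0388) rose. Nf1, which encodes the Spred partner neurofibromin, fell (-0.60, SE 0.103, edgeR adjusted p = 0.00578), from 30.5 ± 1.96 to 20 ± 2.65 CPM (SD, n = 3). Dab2ip, another RAS GTPase-activating protein, fell (-0.91, SE 0.147, edgeR adjusted p = 0.00433), and so did Cblb, a ubiquitin ligase that restrains T cell activation (-0.81, SE 0.0893, edgeR adjusted p = 0.000638), from 291.6 ± 11.9 to 166.4 ± 20.1 CPM. The calls of Rasa1 and Rasal3 were lost without any one of the 3 Fc libraries (edgeR adjusted p from 0.0668 to 0.138 for Rasa1 and from 0.143 to 0.153 for Rasal3), and that of Rasa1 also without DEL-1-Fc replicate 2 (0.054) or 3 (0.0824). An annotated antisense gene covers 13% of the Rasal3 exon bases, which makes part of its reads uncertain.

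Genes that ERK signalling is known to induce were called in 10 of 23 tested genes (43.5%, against 12.6% of all genes tested), 3 higher and 7 lower, with a median log2 fold change of -0.25. Here too the list was drawn up with earlier results known, so the share is a description only. The rises were the immediate-early transcription factors Egr2 (0.57, SE 0.0685, edgeR adjusted p = 0.000983) and Egr3 (0.73, SE 0.141, edgeR adjusted p = 0.0126) and the mRNA-decay factor Zfp36 (0.31, SE 0.0823, edgeR adjusted p = 0.0405). Egr2 went from 58.7 ± 1.26 to 87.1 ± 6.22 CPM (SD, n = 3). The falls with the smallest p were Plaur, the urokinase receptor (-1.44, SE 0.0808, edgeR adjusted p = 4.4e-05), Lif, a cytokine of the IL-6 family (-0.71, SE 0.0817, edgeR adjusted p = 0.000781), and Phlda1 (-0.60, SE 0.105, edgeR adjusted p = 0.00676). The call of Egr3 was lost without Fc replicate 1 or 3 or DEL-1-Fc replicate 1 (edgeR adjusted p 0.0614, 0.0511 and 0.125), and that of Zfp36 without any one Fc library or DEL-1-Fc replicate 2 and with limma-voom (limma adjusted p = 0.0543). Another gene on the other strand covers 33% of the Phlda1 exon bases. Plaur went from 195.3 ± 4.59 to 71.8 ± 7.41 CPM. Egr1 (log2 fold change 0.04) and Fos (-0.26) were not called. The count was 4, 5 and 5 without Fc replicates 1, 2 and 3, where calls over all genes also fell, from 1884 to 901, 970 and 963. In the JNK and p38 cascade, edgeR called 0 of 20 tested genes, 4 of which had an unadjusted p under 0.05, and DESeq2 and limma-voom also called 0. Without DEL-1-Fc replicate 1 edgeR called 4, in a setting where calls over all genes also rose, from 1884 to 3003.

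**Figure D5:**
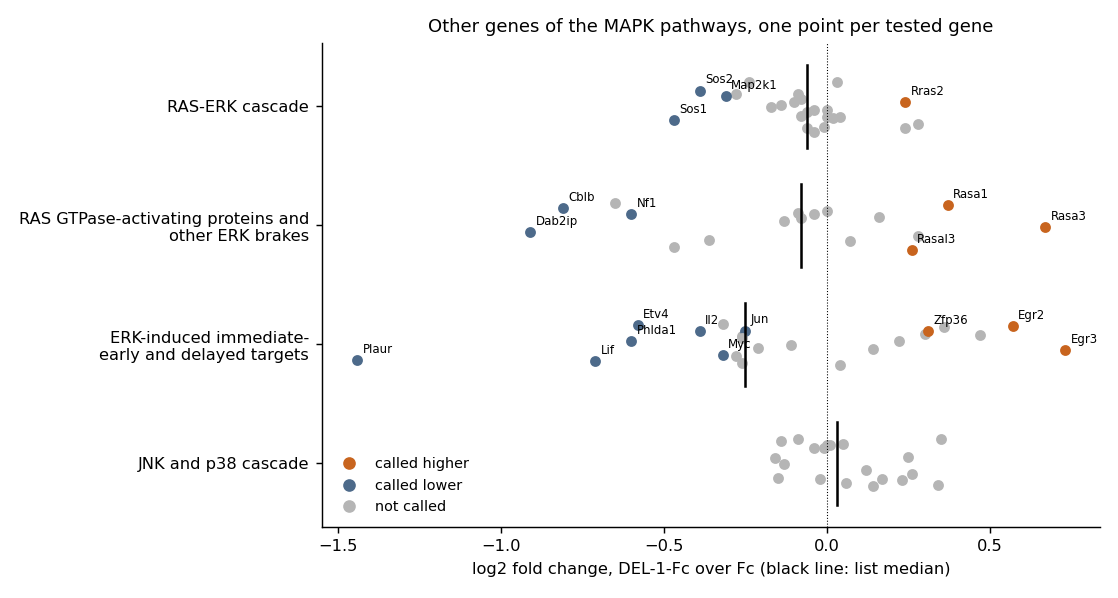
Log2 fold change (horizontal axis, DEL-1-Fc over Fc) of each tested gene of 4 pathway lists, with called genes named and the list median as a black line; vertical position within a list is arbitrary. Calls lie on both sides of 0 in the first 3 lists, and the JNK and p38 list, with a median of 0.03, has no call.

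The genes whose pattern over the 6 libraries was most like that of Spry1, the largest rise, were Cd27, a costimulatory receptor, Rarg, a retinoic acid receptor, and Spsb1. Their root mean square differences from Spry1 were 0.0802, 0.0882 and 0.0885 on the log2 scale, each gene being centred on its own mean, among 9119 genes with a mean of at least 5 CPM. Cd27 measured 85.6, 90.7 and 84.1 CPM over the Fc libraries against 158.4, 130.5 and 117.1 CPM over the DEL-1-Fc libraries, with replicate 1 highest and replicate 3 lowest as in Spry1. Those most like Dusp5, the largest fall, were Stk39, a kinase that regulates ion transport, Gfi1, a transcriptional repressor, and Irf5, an interferon regulatory factor, at 0.0289, 0.0292 and 0.0362. Stk39 measured 217.4, 209.7 and 210.6 CPM over the Fc libraries against 158.3, 148.8 and 143.6 CPM over the DEL-1-Fc libraries. Exons of Irf5 overlap those of Tnpo3 on the other strand over 14.2% of their length, so part of its reads is uncertain.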

How the data were processed

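Trizol was used for RNA extraction, DNA was removed, and BGI made the PolyA-selected libraries, per the labels' protocols. The deposited values are raw counts of reads per Ensembl gene, 1 file per library, made with STAR and HTSeq 0.6.0 on GRCm38 (mm10), per the submitters' processing notes. Annotation release, strand setting and handling of multi-mapping reads: not given in the sources used here, so genes that overlap others are uncertain. Of 39179 identifiers, 37693 matched GENCODE M21, which gave symbols, positions and exon lengths. Totals differed 1.86-fold between libraries, and the limit of 3 counts for a gene at 0 covers counting error only.

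Counts were tested with edgeR 4.0.16 (R 4.3.3): genes kept by filterByExpr (count of 10, total of 15), TMM, robust quasi-likelihood fit, Benjamini-Hochberg over 14928 genes, calls at 0.05. Fold changes set DEL-1-Fc over Fc, and the SE is the absolute log2 fold change over the square root of F. The chi-square between replicates of a group, divided by its degrees of freedom, was 19.9 or more, so no file repeats another. In counts simulated for this comparison over 14928 genes, 200 genes drawn at random over all levels were changed. Of those changed by a log2 of 0.5, 1 and 2, edgeR recovered 25.9%, 59.7% and 95.9%, so changes of the size seen here can be missed. Recovery at the members' own levels, and with as many changed genes as were called here, was not simulated. Alternatives were DESeq2 1.42.0, limma-voom (limma 3.58.1), RLE, upper-quartile and no scaling factors, no filter, 5 CPM required in 3 libraries, a fit that is not robust, a block for replicate numbers and each library left out. Removal of length and GC trends and RPKM by the longest transcript were added after seeing the data.

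The 10 genes, the pathway lists and the markers were chosen with earlier results of these data known. Named genes are all 10 members; every called gene of a pathway list with 6 or fewer calls, otherwise the 3 rises and 3 falls with the smallest p; and the 3 genes nearest in pattern to the largest called rise and fall (log2 of CPM plus 0.25). Uncalled pathway genes and markers named singly were chosen after their values were seen.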

Additional observations from a re-analysis of the deposited data

How the results depend on the processing

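Dusp4, Dusp5 and Dusp6 kept their direction and call in all 16 alternatives, and Spry1 kept its direction in all and its call in 14. Leaving out 1 library gave 1 to 2 members called higher and 2 to 4 called lower, and 901 to 3003 calls over all genes: 901, 970 and 963 when Fc replicate 1, 2 or 3 was omitted and 3003 when DEL-1-Fc replicate 1 was. Calls ranged from 0 to 7 in the RAS-ERK cascade, 4 to 14 among ERK-induced genes, 0 to 4 in the JNK and p38 cascade and stood at 1 among atypical phosphatases. The last list also had 1 call with library sizes alone, without the low-count filter, with the filter of 5 CPM and with the replicate block, and the JNK and p38 list had 1 with library sizes alone and 2 with length and GC trends removed; the cause was not tested. Spry2 changed sign without DEL-1-Fc replicate 2 (range over omissions -0.03 to 0.12) and, like Dusp18, had no value under the filter of 5 CPM. The log2 difference of Spred2 over Spred1 ranged from -0.22 to 0.05, above 0 without DEL-1-Fc replicate 1. The labels do not say whether same-numbered libraries are paired. Their deviations correlated at 0.016, 0.088 and 0.042, and those of differently numbered libraries at -0.091 to 0.038. DEL-1-Fc replicate 1 correlated best with Fc replicate 3 (0.038), and every other library best with its own number. Whether the libraries were paired was not tested. With the replicate block 1510 genes were called, and the same 4 members, while the block ended the calls of Rasal3 (edgeR adjusted p = 0.0525) and Dusp18 (0.0854). Where an arm kept 2 libraries, the spread was pooled over both groups. Depth limits Spry2, at 130 to 260 counts, and Dusp18.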

Other observations

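Relative to their mean, all 10 members varied more among the DEL-1-Fc libraries than among the Fc libraries, by little in Spred1 (CV 1.58% against 1.47%). For Dusp5 and Spred1 this rested on DEL-1-Fc replicate 1. Replicates 2 and 3 of DEL-1-Fc nearly coincided, at 135.6 and 135.7 CPM for Dusp5 and 41.82 and 41.86 CPM for Spred1. CVs without replicate 1 were not computed, for the members or for all genes. Their CV ran from 0.875% (Dusp4) to 6.04% (Spry2) in Fc and from 1.58% (Spred1) to 20.8% (Spry1) in DEL-1-Fc, with medians of 3.14% and 9.95%. This was also the common pattern of the libraries: of 10368 tested genes with a mean of at least 3 CPM, 81% had the larger CV in DEL-1-Fc, and the median CV was 3.85% in Fc and 8.61% in DEL-1-Fc. The members differed in which library stood out. DEL-1-Fc replicate 1 was the highest for Dusp1, Dusp2, Dusp5, Dusp6, Spry1 and Spred1 and the lowest for Dusp10 and Spred2. DEL-1-Fc replicate 2 was the highest for Dusp4, Dusp10, Spry2 and Spred2.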
